A study of Mus musculus with 8 samples.

Results

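The 10 genes described here handle metals in the cell: the metallothionein genes Mt1, Mt2 and Mt3, and the iron handling genes Fth1, Ftl1, Tfrc, Trf, Slc40a1, Slc11a2 and Cp. Their members were every probe set annotated to these symbols, 30 of the 45101 on the array, which names 18193 genes by probe sets of their own. Of these, 23 were annotated to 1 of the genes alone, and these cover 8 genes. A further 4 are shared with other symbols: 3 carry Ftl1 together with a pseudogene and the only probe set of Trf also carries Srprb. The other 3 are array control probe sets made from Tfrc, given by value with no test.

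Signals were compared between 4 arrays of cultures kept at 31.5 °C and 4 arrays of cultures kept at 37 °C. The cultures were oligodendrocyte precursor cells of ICR mice, prepared from mixed primary cultures of the cerebral hemispheres of embryos aged 15 days. Both groups had 5 days in medium with 10% serum and then 48 hr in serum-free medium at their temperature. For each temperature the labels mention 3 mice but leave unstated whether the 4 arrays were separate cultures, so errors and p-values describe these arrays only. In the main fit, which pairs the arrays by replicate number, they measure the spread of the differences within pairs.

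Metallothioneins are small, cysteine-rich proteins that bind zinc and copper. Mt1 and Mt2 are induced by zinc through the sensor MTF1, and by glucocorticoids and oxidative stress, while Mt3 is made mainly in the brain and responds less to these signals. Iron enters cells as transferrin, encoded by Trf, bound to the receptor encoded by Tfrc, and leaves the endosome through the divalent metal transporter encoded by Slc11a2. Surplus iron is stored in ferritin, a shell of heavy (Fth1) and light (Ftl1) chains, or leaves the cell through ferroportin, encoded by Slc40a1, with the help of the ferroxidase ceruloplasmin, encoded by Cp. Oligodendrocytes are rich in iron and are a main source of transferrin in the brain.

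Mt1, Mt2 and Mt3 lie in a row on chromosome 8, on the forward strand, Mt3 at 94152607 to 94154148, Mt2 at 94172618 to 94173567 and Mt1 at 94178883 to 94180327 (RefSeq, GRCm38.p6). Because Mt1 and Mt2 are the members known as zinc targets, the sequence before their starts is shown with that of Mt3, whose signal is set against theirs below. Capitals mark the core of the metal response element, the sequence that MTF1 binds, searched on both strands as TGCACNC or TGCGCNC. For Mt1 the 30 bases before and the first 30 from the start used, inside the annotated gene, are printed (chr8:94179059-94179088 and chr8:94179089-94179118), for Mt2 and Mt3 the 250 bases before the start (chr8:94172368-94172617 and chr8:94152357-94152606).

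Mt1, before the start: cccgctgTGCACACtggcgctccagggagc
Mt1, from the start: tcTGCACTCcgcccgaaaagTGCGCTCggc
Mt2: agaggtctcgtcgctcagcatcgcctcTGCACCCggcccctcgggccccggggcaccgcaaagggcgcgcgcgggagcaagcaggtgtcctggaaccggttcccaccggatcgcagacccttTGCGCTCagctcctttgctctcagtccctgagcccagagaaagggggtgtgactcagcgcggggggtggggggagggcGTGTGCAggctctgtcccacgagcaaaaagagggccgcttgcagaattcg
Mt3: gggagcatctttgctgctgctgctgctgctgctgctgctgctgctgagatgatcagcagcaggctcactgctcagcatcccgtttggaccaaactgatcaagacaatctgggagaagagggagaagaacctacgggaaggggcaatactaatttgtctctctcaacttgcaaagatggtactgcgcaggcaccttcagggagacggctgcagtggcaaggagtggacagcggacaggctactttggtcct

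Over the whole window of 300 bases, 250 before and 50 after the start, Mt1 held 3 such matches, Mt2 4 and Mt3 1. The match of Mt3 and 1 match of Mt2 lie after the start and are not printed. The window of Mt1 is placed on a start inside its annotated gene, those of Mt2 and Mt3 on the annotated gene starts. The counts of the 3 genes are therefore not like for like. Where transcription of Mt1 begins was not checked, and matches outside the windows were not counted. Of the 32851 RefSeq promoters of this length, 25.7% held at least 1 match, 1.97% at least 3 and 0.517% at least 4. The core of the antioxidant response element, TGACNNNGC, occurred once in Mt2, 79 to 71 bases before the start, and not in Mt1 or Mt3 (12.4% of all promoters held at least 1). Of the 10 genes 7 had a promoter entry; beside the metallothioneins, 1 of the 2 starts of Tfrc held 2 overlapping matches to the metal response core, and Fth1, Ftl1 and Cp held 0. These matches describe the letters in the windows and show no binding.

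Of the 23 probe sets of a single member, 18 had a mean signal past the filter and were tested, and 5 of the 18 changed (limma with the replicate number as a block, adjusted p under 0.05 over all 22519 probe sets tested). That is 27.8%, against 26.4% of all probe sets tested, so the members as a group changed about as often as the rest of the array. The 2 that were higher at 31.5 °C belong to Mt2 and Slc11a2 (12.4% of all probe sets were called higher). The 3 that were lower belong to Slc40a1 and Slc11a2 (13.9% of all were called lower). The median change of the 18 was 0.056 on the log2 scale, and of all probe sets -0.0050. The arrays of 1 replicate number resembled each other, and without the block 1 of the 18 changed, against 13.4% of all probe sets; it was higher at 31.5 °C (6.52% of all were called higher and 6.83% lower). Of all calls 47.1% were higher at 31.5 °C, or 67.8% if medians were equalised instead of trimmed means, a step that shifted the typical probe set by 0.09 on the log2 scale.

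**Figure D1:**
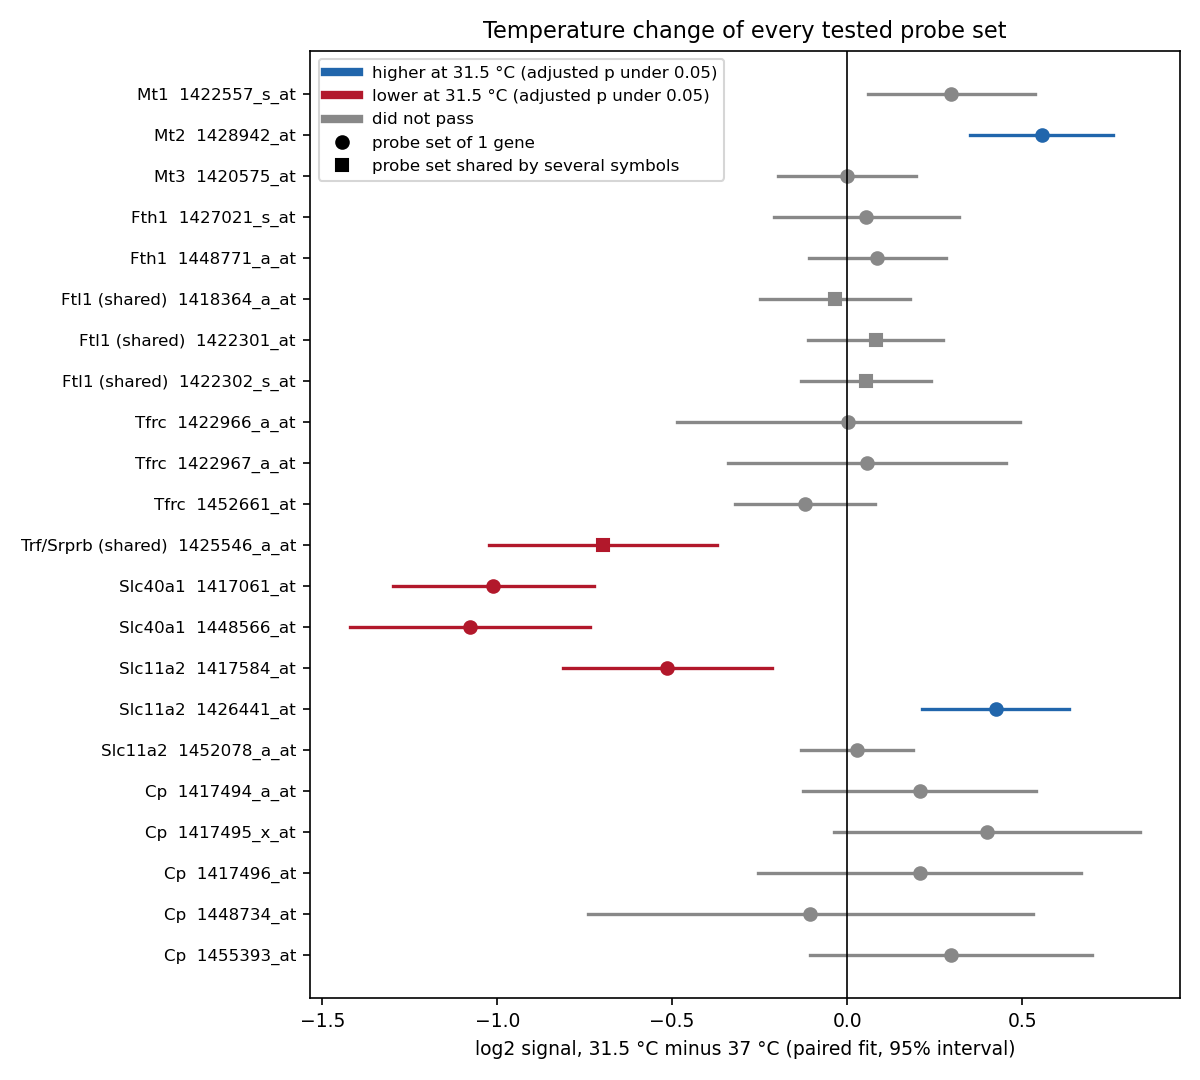
Log2 change (31.5 °C minus 37 °C) of the 22 tested probe sets of the members, 18 of a single gene (circles) and 4 shared with other symbols (squares), with 95% intervals from the paired fit. Both probe sets of Slc40a1 lie near -1, the 3 of Slc11a2 lie on both sides of 0, and those of the ferritins and Tfrc span 0.

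The array labels were checked against marker genes. Summed over 10 precursor markers, the signal was 16772 to 19295 at 31.5 °C and 17307 to 20702 at 37 °C, lower at 31.5 °C in each of the 4 pairs (-0.19 to -0.03). Of all genes 12.9% were called higher and 14% lower. Of the 10 precursor markers, Pdgfra (0.45) and Lhfpl3 (0.67) rose, Gpr17 (-0.84) and Matn4 (-0.87) fell and 6 did not pass. Their mean signals ran from 138 at 31.5 °C and 120 at 37 °C in Cspg4 to 6727 and 6752 in Olig1. The cultures also held other cells. Summed over 12 astrocyte markers, the signal was 12961 to 21134 at 31.5 °C and 15544 to 26027 at 37 °C, and over 14 microglia and macrophage markers 11026 to 19338 and 13969 to 25245. Over 14 markers of maturing oligodendrocytes it was 10226 to 14564 at 31.5 °C and 20151 to 25416 at 37 °C, and over 10 neuron markers 10672 to 13694 and 11131 to 15763. Over 8 fibroblast and meningeal markers it was 1816 to 5097 at 31.5 °C and 2087 to 4242 at 37 °C. Over 6 choroid plexus and ependyma markers it was 696 to 1531 and 819 to 2104. Endothelial markers (8, summed signal 134 to 258 at 31.5 °C and 112 to 229 at 37 °C) and erythroid markers (5, 61.0 to 118 and 77.6 to 135) were low. In a bulk RNA sample, fewer cells of a type and less RNA per cell cannot be told apart.

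Mt2 rose at 31.5 °C. Its probe set 1428942_at had signals of 5232, 4619, 4792 and 3134 in replicates 1 to 4 at 31.5 °C, against 3699, 3005, 3706 and 1887 at 37 °C. The 31.5 °C array was the higher in each of the 4 pairs, but the groups overlapped, since replicate 4 was the lowest array at both temperatures. The paired change was 0.56 ± 0.08 on the log2 scale (SE), or 1.47-fold (limma, adjusted p = 0.00807). The within-pair changes were 0.50, 0.62, 0.37 and 0.73. Without the block the change was the same and did not pass (adjusted p = 0.165), and it passed under the other 14 alternatives tried.

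Mt1, the close relative of Mt2, did not pass. Its bright probe set 1422557_s_at, an ending given to probe sets that can match several transcripts, had signals of 6047, 4622, 4501 and 2805 at 31.5 °C, against 4821, 3425, 4535 and 2063 at 37 °C. Pairs 1, 2 and 4 were higher at 31.5 °C and the arrays of pair 3 were nearly equal (-0.01). The change was 0.30 ± 0.10 (95% interval 0.06 to 0.54, adjusted p = 0.0709). It passed without pair 3 (0.40, adjusted p = 0.0433), with median scaling (0.39, adjusted p = 0.0311), with a stricter filter (adjusted p = 0.0303) and with an intensity trend (adjusted p = 0.0138). The other probe set of Mt1, 1451612_at, was dim (22.7 ± 10.2 at 31.5 °C and 21.1 ± 5.68 at 37 °C, SD, n = 4 each) and fell under the filter. Averaged over both probe sets, the change of Mt1 was 0.16 (adjusted p = 0.608).

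Mt3 was at nearly the same signal at both temperatures. Its probe set 1420575_at read 5696, 6308, 5799 and 5252 at 31.5 °C, against 5331, 5847, 6669 and 5256 at 37 °C. The change was 0.00 ± 0.08 with a 95% interval from -0.20 to 0.20 (limma, adjusted p = 0.997), and 2 pairs lay above and 2 below 0. The sign of this small value flips without pair 1 or 2 and with array weights.

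**Figure D2:**
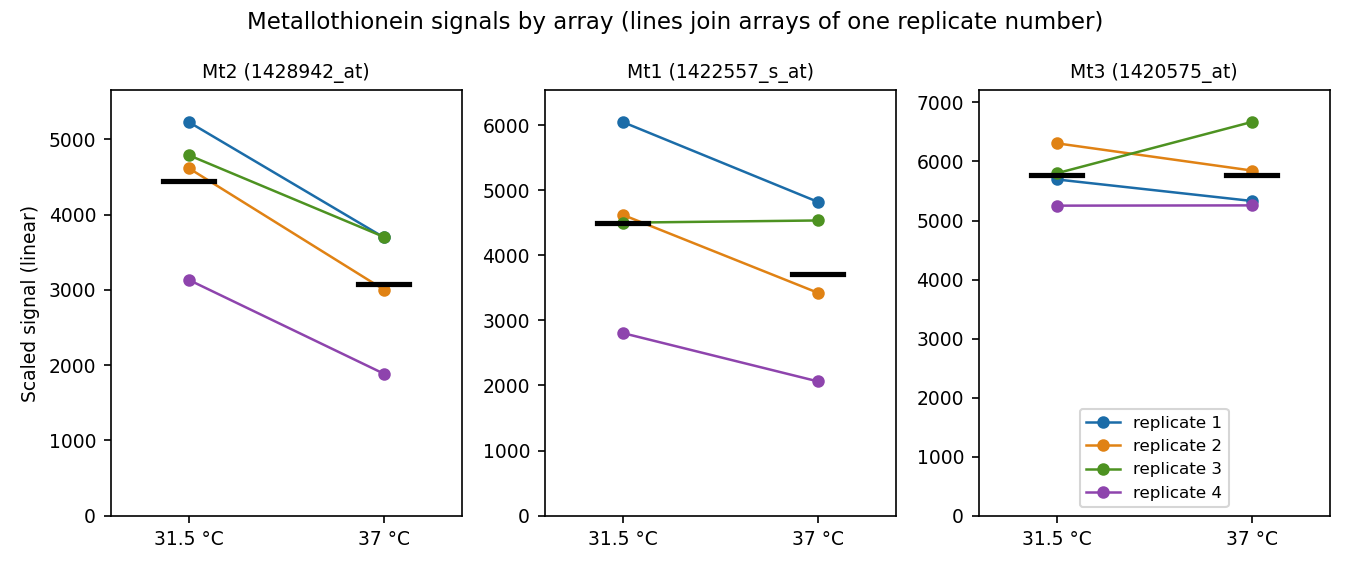
Scaled linear signal of Mt2, Mt1 and Mt3 on each array, 31.5 °C at the left and 37 °C at the right of each panel; lines join arrays of a replicate number and black bars mark the means of 4 arrays. All 4 lines of Mt2 slope down towards 37 °C, 3 of the 4 of Mt1 do, and those of Mt3 cross.

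Whether the metallothioneins moved by different amounts was asked of the log2 difference of their signals within an array. Mt2 gained on Mt1 in each of the 4 pairs, by 0.17 to 0.38, and by 0.26 on average (exact two-sided permutation test of 4 arrays against 4, p = 0.0857, adjusted over 4 comparisons 0.114). Mt3 lost to Mt1 in each of the 4 pairs, by -0.44 to -0.19, and by -0.30 on average (exact p = 0.400, adjusted 0.400). Neither passed. The test ignores the pairs, so the spread between replicates enters its p, and it does not measure the within-pair differences. Its smallest possible p is 0.0286, which passes after adjustment only if most of the 4 comparisons reach it. Not passing therefore does not show that the genes moved alike.

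The lowest signals of Mt1 and Mt2 at each temperature were both on the replicate 4 arrays, where the astrocyte markers also had their lowest sums (12961 at 31.5 °C and 15544 at 37 °C). Within pairs 1 to 4 that sum changed by -0.30, -0.27, -0.40 and -0.26 on the log2 scale, opposite to Mt2. Of 12 astrocyte markers tested 5 were lower and 1 higher at 31.5 °C, where 14% of all genes were called lower and 12.9% higher. Without the block 1 of the 12 passed, against 13.4% of all probe sets. The part of astrocytes in the metallothionein values was not tested.

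Slc40a1, the gene of the iron exporter ferroportin, had the largest change among the tested members. Probe set 1417061_at read 151, 162, 386 and 379 at 31.5 °C, against 248, 426, 745 and 753 at 37 °C. Probe set 1448566_at read 93.7, 104, 182 and 153 at 31.5 °C, against 148, 220, 377 and 443 at 37 °C. In all 4 pairs and with both probe sets the 31.5 °C array was the lower, while the groups overlapped because replicates 3 and 4 were above replicates 1 and 2 at both temperatures. The changes were -1.01 ± 0.12 (limma, adjusted p = 0.00445) and -1.08 ± 0.14 (adjusted p = 0.00570), so that the signal was 2.02-fold and 2.11-fold higher at 37 °C. Both calls held without any 1 of the pairs. Neither passed without the block (adjusted p = 0.169 and 0.0805), and 1448566_at did not pass when no filter was used (adjusted p = 0.0547).

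Ferroportin is also made by microglia and macrophages, which export the iron of the cells they take up. The summed signal of 14 of their markers stood higher in replicates 3 and 4 than in replicates 1 and 2 at both temperatures (13039, 11026, 16761 and 19338 at 31.5 °C, against 15775, 13969, 24816 and 25245 at 37 °C). Its within-pair changes were -0.27, -0.34, -0.57 and -0.38 in pairs 1 to 4, against -0.71, -1.39, -0.95 and -0.99 for Slc40a1 probe set 1417061_at. The sum is led by its brightest gene, Lyz2, which averaged 5641 at 31.5 °C and 8256 at 37 °C. Of 13 markers of these cells tested, 4 fell and 9 did not pass, where 14% of all genes were called lower. Without the block 0 passed, against 13.4% of all probe sets. The complement gene C1qb changed by -1.17 ± 0.07 (adjusted p = 0.00149, or 0.0735 without the block) and the receptor adaptor gene Tyrobp by -0.11 ± 0.11 (adjusted p = 0.509). How far these cells account for the value of Slc40a1 was not tested.

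The probe set that Trf shares with its neighbour Srprb, 1425546_a_at, was lower at 31.5 °C. Srprb encodes a subunit of the receptor for the signal recognition particle, and both genes lie on chromosome 9 (Trf at 103208876 to 103230286 and Srprb at 103188033 to 103202065). The signals were 144, 217, 304 and 472 at 31.5 °C, against 241, 350, 644 and 570 at 37 °C. Each pair was lower at 31.5 °C, with overlap between the groups, and the change was -0.70 ± 0.13 (adjusted p = 0.0156). The 3 probe sets of Srprb alone had -0.31 ± 0.09 (1421012_at, adjusted p = 0.0514), -0.05 ± 0.07 (1425348_a_at, adjusted p = 0.624) and 0.13 ± 0.07 (1450089_a_at, adjusted p = 0.248), and none passed. The call of the shared probe set was lost without pair 1 (adjusted p = 0.0580) or pair 2 (adjusted p = 0.0579), without the block (adjusted p = 0.297) and with no filter (adjusted p = 0.0981).

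Markers of maturing oligodendrocytes, the cells known for transferrin, moved the same way: 8 of the 10 tested fell and 0 rose. Of all genes 14% were called lower and 12.9% higher. Without the block 7 passed, against 13.4% of all probe sets. The summed signal of the markers changed by -0.51, -0.88, -0.55 and -1.19 in pairs 1 to 4. That sum is led by its bright genes Mbp (5474 at 31.5 °C and 9500 at 37 °C) and Cnp (4837 and 7328). Among the 8 that fell, Mobp averaged 10.0 at 31.5 °C and 304 at 37 °C and passed the filter only through the 37 °C arrays. The shared probe set changed by -0.75, -0.69, -1.08 and -0.27. The order of the pairs therefore differed, with pair 4 the largest fall of the marker sum and the smallest of the Trf/Srprb probe set. The part of this cell type in the value was not tested.

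The probe sets of Slc11a2, the divalent metal transporter, disagreed. Probe set 1426441_at read 264, 258, 234 and 241 at 31.5 °C, against 166, 205, 181 and 193 at 37 °C. It was the 1 member probe set of 18 tested (5.56%) whose groups did not overlap, against 21.1% of all probe sets, and it rose by 0.42 ± 0.09 (limma, adjusted p = 0.0187). Probe set 1417584_at read 54.5, 61.2, 71.4 and 76.3 at 31.5 °C, against 91.2, 92.0, 75.5 and 119 at 37 °C, and changed by -0.51 ± 0.12 (adjusted p = 0.0292). Probe set 1452078_a_at lay between 172 and 187 at 31.5 °C and between 165 and 189 at 37 °C (0.03 ± 0.07, 95% interval -0.13 to 0.19, adjusted p = 0.771). The dim 1441709_at, at 16.4 ± 8.26 and 35.1 ± 16.9 (SD, n = 4 each), fell under the filter and was lower at 31.5 °C in each of the 4 pairs.

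Slc11a2 is known to give transcripts with different 3′ ends, of which only some carry an iron-responsive element. The files do not say which transcript a probe set reads, so no direction is given for the gene. The mean change over its 3 tested probe sets was -0.02. Over all 4 it was -0.28 (adjusted p = 0.0264), a value that rests on 1441709_at, which fell under the filter (-1.07 when no filter was used). Both calls were close to the threshold. That of 1426441_at was lost without pair 1, 2 or 3 (adjusted p = 0.0540, 0.0519 and 0.0574) and with no filter (0.0724), but held without the block (0.0215). That of 1417584_at was lost without pair 1, 2 or 4 (adjusted p = 0.0967, 0.0962 and 0.0922), without the block (0.0651), with no filter (0.136) and with median scaling (0.0523).

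**Figure D3:**
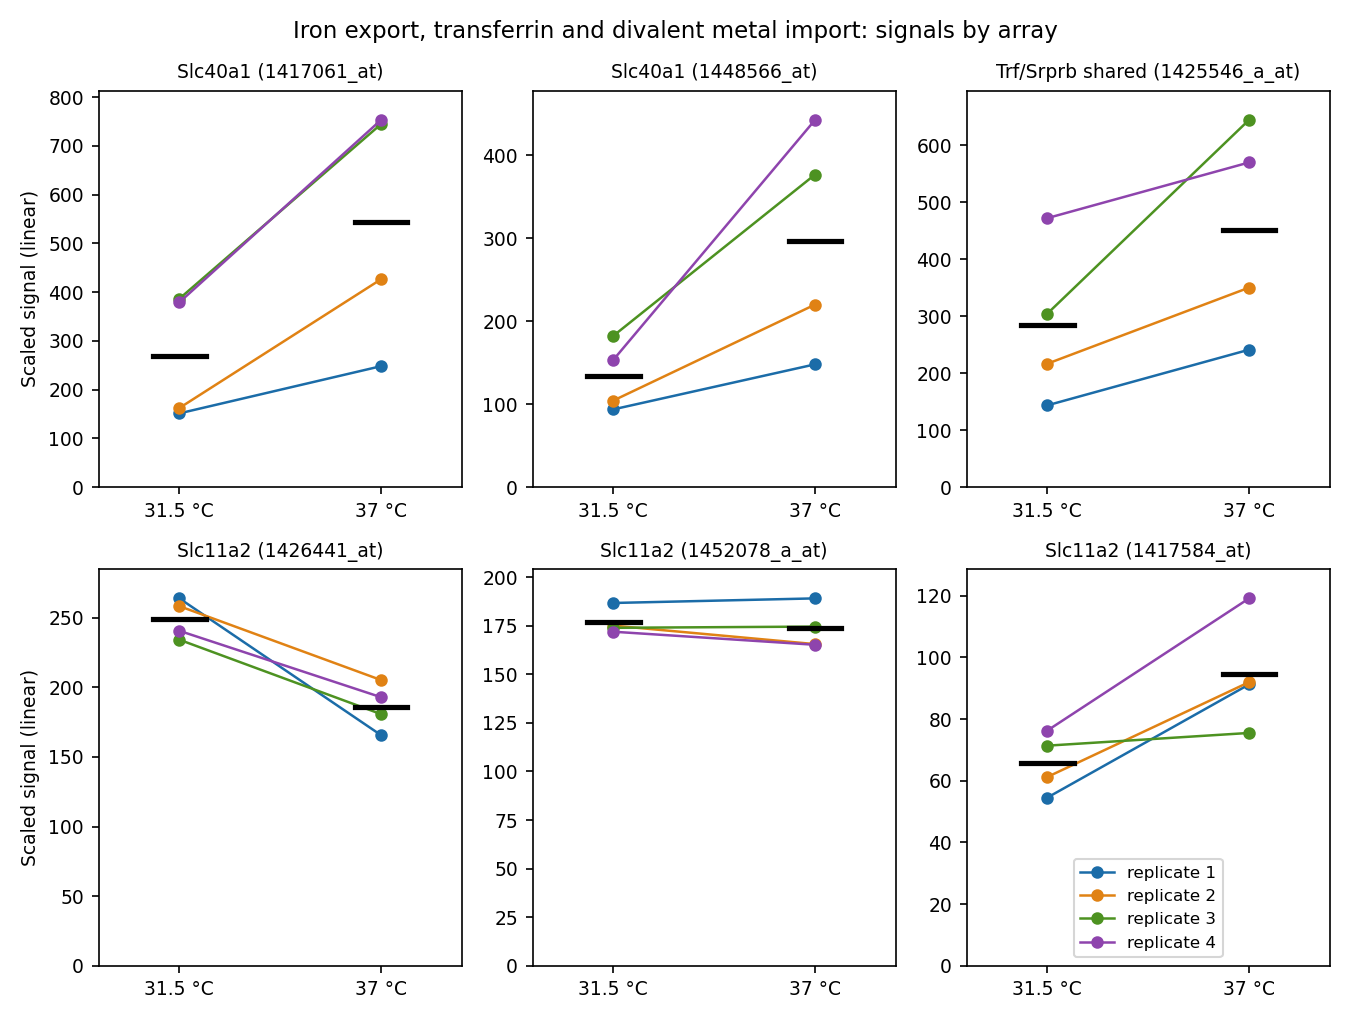
Scaled linear signal on each array for both probe sets of Slc40a1, the probe set shared by Trf and Srprb, and the 3 tested probe sets of Slc11a2, 31.5 °C at the left of each panel. Lines join arrays of a replicate number and black bars mark means of 4 arrays: Slc40a1 and Trf/Srprb are lower at 31.5 °C in every pair, and the lines of Slc11a2 run in opposite directions in 1426441_at and 1417584_at.

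Ferritin genes did not pass. Fth1, the heavy chain with ferroxidase activity, read 11656 to 12754 at 31.5 °C and 10326 to 12893 at 37 °C in probe set 1448771_a_at (0.09 ± 0.08, 95% interval -0.11 to 0.28, adjusted p = 0.457). Its other probe set, 1427021_s_at, read 10610 to 11836 at 31.5 °C and 9232 to 13028 at 37 °C (0.06 ± 0.11, adjusted p = 0.735; -0.03 without pair 2). These are among the brightest probe sets: 1448771_a_at stood on average at rank 10 of 45037, at 91.6% of the highest signal of its array at 31.5 °C and 87.6% at 37 °C. Whether the scale is compressed at such signals was not tested.

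The 3 probe sets that Ftl1, the light chain, shares with other symbols did not pass either. The brightest, 1418364_a_at, averaged 7914 ± 183 at 31.5 °C and 8142 ± 975 at 37 °C (SD, n = 4 each; -0.03 ± 0.09, adjusted p = 0.804), with a sign that flips with median scaling (0.06) and without pair 4 (0.04). The others changed by 0.05 ± 0.08 (1422302_s_at, adjusted p = 0.628) and 0.08 ± 0.08 (1422301_at, adjusted p = 0.479).

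Tfrc, the transferrin receptor gene whose transcript is stabilised when iron is short, did not pass with any of its 3 tested probe sets. The brightest, 1452661_at, read 2401, 2375, 2654 and 2323 at 31.5 °C, against 2284, 2782, 2810 and 2751 at 37 °C (-0.12 ± 0.08, 95% interval -0.32 to 0.08, adjusted p = 0.315). In 1422966_a_at the groups averaged 421 ± 108 and 411 ± 56.7 (SD, n = 4 each), and its changes in pairs 1 to 4 were 0.38, 0.48, -0.15 and -0.69. The spread between pairs in that probe set is wider than its mean change (0.00 ± 0.20, adjusted p = 0.991). The dimmer 1422967_a_at averaged 96.0 ± 8.96 at 31.5 °C and 94.3 ± 23.7 at 37 °C (SD, n = 4 each; 0.06 ± 0.16, adjusted p = 0.819; -0.11 without pair 2). In the 3 control probe sets of Tfrc pair 4 lay below 0 and pairs 1 to 3 above it (-0.53 in pair 4 and 0.22 to 0.39 in the others for the 5′ one). Their 3′ to 5′ ratio was 2.97 ± 0.314 at 31.5 °C and 2.91 ± 0.326 at 37 °C (SD, n = 4 each).

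The brightest probe sets of the uptake and export genes, Tfrc 1452661_at and Slc40a1 1417061_at, were set against the brightest of Fth1, 1448771_a_at, within each array. Tfrc 1452661_at lost to it in each of the 4 pairs, by -0.46 to -0.08 and by -0.21 on average (exact two-sided permutation test, p = 0.0286, the smallest this design can give, adjusted over 4 comparisons 0.114). Slc40a1 1417061_at lost to it in each of the 4 pairs as well, by -1.63 to -0.89 and by -1.10 on average (exact p = 0.0857, adjusted 0.114). Neither passed after adjustment, which a comparison at the smallest p can do only if most of the 4 reach that p. Here too the test ignores the pairs, so the spread between replicates enters its p. Not passing does not show that these genes moved alike. The order did not hold for every probe set of Tfrc and Fth1: 1422966_a_at of Tfrc changed by 0.38 and 0.48 in pairs 1 and 2, more than 1448771_a_at of Fth1 (0.17 and 0.23), and in pair 4 Tfrc 1452661_at changed by -0.24 and Fth1 1427021_s_at by -0.26.

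Cp, the gene of ceruloplasmin, which in the brain is made mainly by astrocytes, did not pass with any of its 5 tested probe sets. Their changes ran from -0.11 ± 0.26 (1448734_at, adjusted p = 0.791) to 0.40 ± 0.18 (1417495_x_at, adjusted p = 0.148). Probe set 1417494_a_at, the brightest, read 205, 256, 203 and 435 at 31.5 °C, against 227, 210, 197 and 278 at 37 °C (0.21 ± 0.14, adjusted p = 0.301). The change was 0.21 ± 0.19 in 1417496_at (adjusted p = 0.451) and 0.30 ± 0.16 in 1455393_at (adjusted p = 0.228). In all 5 the highest 31.5 °C signal was that of replicate 4, and pair 1 was below 0 while pair 4 was above it. On the replicate 4 array at 31.5 °C the astrocyte markers had their lowest sum (12961). The sums of 8 fibroblast and meningeal markers (5097) and of 14 microglia and macrophage markers (19338) were the highest at 31.5 °C there. Within pairs 1 to 4 the fibroblast and meningeal sum changed by -0.32, -0.20, -0.40 and 0.26. The part of these cell types in the values of Cp was not tested. Without pair 1, 1417495_x_at (0.62, adjusted p = 0.0339) and 1417496_at (0.46, adjusted p = 0.0328) passed, and the value of 1448734_at turned to 0.04. The other 3 probe sets of Cp (1448735_at, 1417497_at and 1441326_at, the last at or under the floor on 7 of 8 arrays) fell under the filter, with mean signals of 4.54 to 27.6 over the 8 arrays.

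The filter lay at a mean signal of 38.25 over the 8 arrays. The members nearest to it were Cp 1448735_at at 27.6, outside, and Cp 1455393_at at 47.4, inside.

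**Figure D4:**
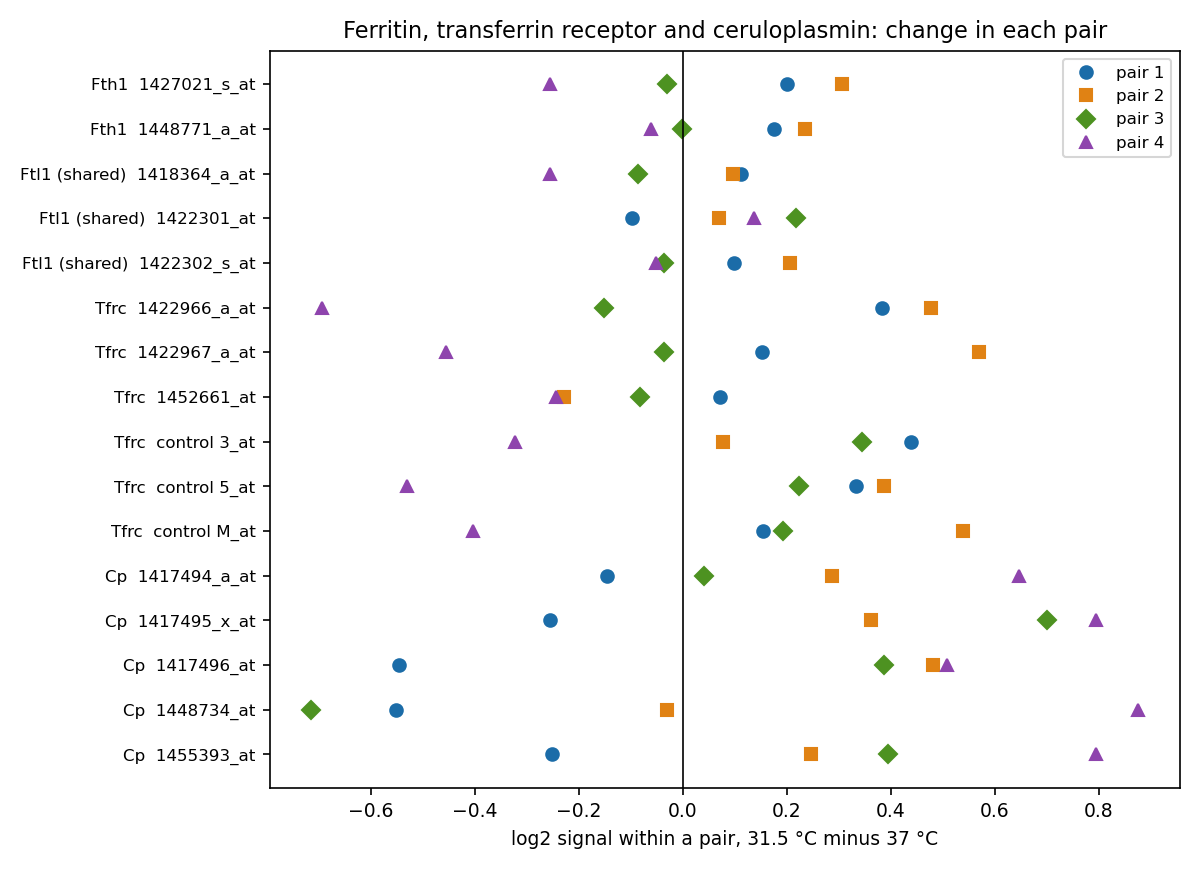
Log2 change within each of the 4 pairs (31.5 °C minus 37 °C) for the ferritin, Tfrc and Cp probe sets; each symbol is a pair, and Tfrc control marks the array's own control probe sets for Tfrc (3′, 5′ and middle). In Tfrc pair 4 lies at the left (-0.69 in 1422966_a_at), and in Cp pair 1 lies below 0 and pair 4 above it.

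Other genes of metal handling were taken from 5 lists, each gene by its brightest probe set. Among all genes so represented, 12.9% were higher and 14% lower at 31.5 °C (26.9% in all), with a median change of -0.0027. Without the block the called genes of the iron, haem, iron-sulphur, zinc and copper lists numbered 5, 5, 5, 3 and 2. The genes tested in these lists numbered 26, 18, 27, 18 and 18, and 13.4% of all probe sets were called without the block. Of 26 genes of iron uptake, storage, export and regulation, 4 rose, 4 fell and 18 did not pass, at a median of -0.10. Both genes of the iron-regulatory proteins, which read the cell's iron and bind iron-responsive elements, were among those that did not pass: Aco1 had 0.05 ± 0.10 (adjusted p = 0.709) and Ireb2 -0.21 ± 0.08 (adjusted p = 0.0908). The metalloreductase gene Steap2 rose by 0.61 (adjusted p = 0.00486) and the haem transporter gene Slc48a1 by 0.37 (adjusted p = 0.0116). Lcn2, whose protein binds iron-carrying siderophores, changed by -1.38 ± 0.18 (adjusted p = 0.00588), averaging 101 at 31.5 °C and 256 at 37 °C. Bmp6, a growth factor gene that in liver controls the iron hormone hepcidin, changed by -0.48 (adjusted p = 0.0117), and the mitochondrial iron importer gene Slc25a37 by -0.52 (adjusted p = 0.0130). The related importer gene Slc25a28 rose by 0.42 (adjusted p = 0.0131).

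Genes of haem synthesis and breakdown gave 5 rises, 2 falls and 11 that did not pass, of 18 tested, at a median of 0.11. The largest rises of the list were those of Blvrb and Hmox1, of haem breakdown. Blvrb, a biliverdin reductase, averaged 925 at 31.5 °C and 375 at 37 °C (1.33 ± 0.13, adjusted p = 0.00278). Hmox1, the inducible haem oxygenase, which frees iron from haem, averaged 3875 at 31.5 °C and 2310 at 37 °C (0.75 ± 0.07, adjusted p = 0.00269). Steps of synthesis moved both ways, with Urod higher by 0.44 (adjusted p = 0.0101), Uros at -0.60 (adjusted p = 0.00778) and Cpox at -0.80 (adjusted p = 0.0151). Abcg2, a transporter that can export porphyrins, rose by 0.46 (adjusted p = 0.0457). The other genes of haem breakdown did not pass: Blvra, the main biliverdin reductase, had 0.36 ± 0.11 (adjusted p = 0.0592) and Hmox2, the constitutive haem oxygenase, -0.09 ± 0.07 (adjusted p = 0.361).

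Of 27 genes of iron-sulphur cluster assembly, 5 rose, 1 fell and 21 did not pass, at a median of 0.09. Ciao2b, of the cytosolic targeting complex, changed by -0.82 ± 0.07 (adjusted p = 0.00245), while Cisd2, an iron-sulphur protein of the endoplasmic reticulum, rose by 0.49 (adjusted p = 0.00711). Nubp1, a cytosolic scaffold, rose by 0.51 (adjusted p = 0.0140), the ferredoxin gene Fdx1 by 0.37 (adjusted p = 0.0143) and Bola1 by 0.57 (adjusted p = 0.0193).

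Zinc transport gave 2 rises, 2 falls and 14 that did not pass, of 18 tested, at a median of -0.0079. The importer genes Slc39a4 and Slc39a11 rose by 0.87 (adjusted p = 0.00569) and 0.53 (adjusted p = 0.00815). Slc39a4 averaged 62.8 at 31.5 °C and 34.5 at 37 °C, so it passed the filter of 38.25 only through the 31.5 °C arrays, and its call supports nothing on its own. The importer genes Slc39a12 and Slc39a10 changed by -0.78 (adjusted p = 0.00652) and -0.45 (adjusted p = 0.00891). Mtf1, the zinc sensor, had 0.16 ± 0.13 (adjusted p = 0.395), and Slc30a1, a zinc exporter that is also an MTF1 target, had 0.13 ± 0.09 (adjusted p = 0.298); neither passed.

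Copper transport and chaperone genes gave 4 rises, 2 falls and 12 that did not pass, of 18 tested, at a median of -0.11. Atp7b, a copper pump, rose by 0.75 (adjusted p = 0.0140), Ccs, which loads copper into superoxide dismutase, by 0.63 (adjusted p = 0.0155), and the importer gene Slc31a1 by 0.37 (adjusted p = 0.0282). The secreted superoxide dismutase gene Sod3 changed by -0.86 (adjusted p = 0.00890) and the cytochrome oxidase chaperone gene Cox17 by -0.31 (adjusted p = 0.0274). Of the called genes named from these lists, Bmp6, Cpox, Abcg2, Slc39a12, Slc31a1, Sod3 and Cox17 did not pass without the block (limma, adjusted p = 0.0575 to 0.155). The other called genes named did pass without it.

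**Figure D5:**
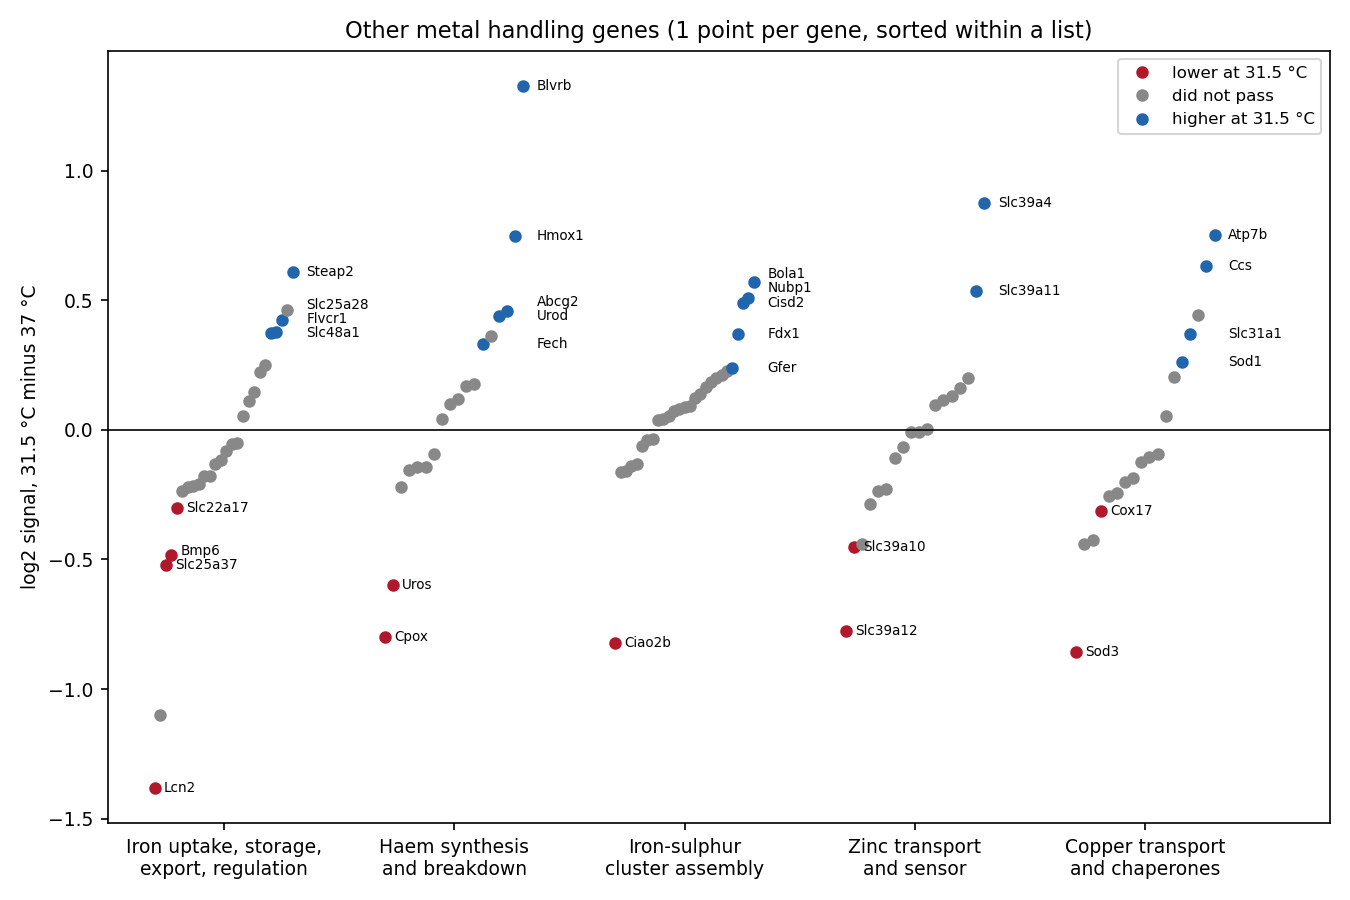
Log2 change (31.5 °C minus 37 °C) of each tested gene of 5 metal handling lists, sorted within a list; coloured and named points passed the test over all probe sets. Every list holds genes on both sides of 0, with Blvrb the highest point (1.33) and Lcn2 the lowest (-1.38).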

How the data were processed

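Total RNA was read on 8 whole-genome arrays, 4 per temperature. The authors deposited 1 linear intensity per probe set and array, computed with MAS5 per the submitters' processing notes; no version, scaling target or detection call is given in the sources used here. The number of arrays limits the precision. Gene symbols came from the platform annotation, updated through RefSeq (GRCm38.p6). Of 45037 probe sets left after 64 controls, 34945 carried 1 symbol, 932 several and 9160 none; those with several name no gene.

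A factor per array (0.848 to 1.60) brought the 2% trimmed means to their average, signals below the 25th percentile (9.80) were set to it, and log2 was taken. The largest factor, 1.60, was that of replicate 4 at 37 °C, the dimmest array. Its trimmed mean before scaling was 132, against 189 to 248 on the other arrays. How far this rescaling enters the values of pair 4 was not tested. Probe sets at or above the median mean signal were tested (22519) with limma 3.58.1 in R 4.3.3 (lmFit and eBayes, two-sided, Benjamini-Hochberg over all, threshold 0.05), temperature with the replicate number as a block. The numbers pair the arrays: deviations from the group means correlated at 0.522, 0.385, 0.442 and 0.578 within a number and at most 0.0033 between numbers. Taking off the group means lowers the values between numbers, so only those within a number bear on the pairing. Differences between genes were tested by exact permutation. Every member probe set is named; of each list, up to 5 passing genes of smallest p, and a few regulators, relatives and microglia markers chosen after their values were seen. The members and lists were chosen with earlier results of these data known. The planned tests of Trf against oligodendrocyte markers and of Ftl1 against Fth1, and the genes most like Trf, were left out, as neither Trf nor Ftl1 has a probe set of its own; values of the shared probe sets are set beside the others with no test. The procedure was also run on simulated data with far fewer changed probe sets than were called here, so that run does not bear on the calls of single members. Alternatives covered the scaling, floor, filter, probe sets per gene, variance model, block and each pair left out. Python 3.11.15 with matplotlib 3.10.9 made the figures.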

Additional observations from a re-analysis of the deposited data

Results flagged for a closer look

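Within each group of 4 arrays the highest and lowest signals of the 22 tested probe sets were checked for a gap to the next array that takes up most of the group's range (44 groups; chance flags about 1 in 20, or 2.2 here). It found 3. Tfrc 1452661_at in replicate 1 at 37 °C, at 2284 with the other 3 arrays between 2751 and 2810, had a gap of 0.887 of the range. Cp 1417495_x_at in replicate 4 at 31.5 °C, at 285 with the others between 112 and 128, had a gap of 0.908. Cp 1417496_at on the same array, at 106 with the others between 53.0 and 58.9, had a gap of 0.888; both probe sets read Cp and are not independent.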

How the results depend on the processing

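Of 295 recomputed changes of member probe sets under the 15 alternatives, 257 kept their direction and side of the threshold, 18 lost and 6 gained a call and 14 changed sign, all 14 on values that did not pass except that of Slc11a2. With no replicate block 3007 of 22519 probe sets changed (13.4%, with 1469 higher and 1538 lower), and 1 of the 18 members (1 higher, 0 lower). Median scaling gave 4271 higher and 2029 lower. With no filter 2995 of 45037 changed (1485 and 1510), and 2 of the 23 members (1 and 1). With 1 probe set per gene 3536 of 11528 changed (1723 and 1813), and 3 of the 8 member genes (1 lower). With probe sets averaged per gene 2802 changed (1300 and 1502), also over fewer features than in the main fit. Leaving out a pair gave 3144 to 3598 of 22519 changed (1370 to 1597 higher, 1735 to 2001 lower). Of at most 18 members it gave 3 to 5 (1 to 3 higher, 2 to 3 lower). Signs turned for Tfrc 1422966_a_at with quantile scaling (-0.0036) and array weights (-0.0084), for Mt3 with array weights (-0.017), for Ftl1 1418364_a_at with median scaling (0.056), and for Slc11a2 1426441_at where a gene's probe sets were averaged (-0.28), which takes in the dim 1441709_at. They also turned with a pair left out, over ranges of -0.15 to 0.24 (Tfrc 1422966_a_at), -0.11 to 0.23 (Tfrc 1422967_a_at), -0.028 to 0.16 (Fth1 1427021_s_at), -0.036 to 0.068 (Mt3), -0.082 to 0.040 (Ftl1 1418364_a_at) and -0.43 to 0.098 (Cp 1448734_at). The cause was not tested. None of the 4 differences between genes passed under the other scalings and floors, where a pass needs the smallest p in most of the 4. None passed without a pair either, where 3 arrays against 3 cannot pass. The other alternatives were not run for these differences.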

Other observations

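Across the 8 arrays, the genes whose log2 signal followed that of Mt1 most closely were Lap3 (Pearson r = 0.997), Dhrs1 (r = 0.988) and Zfp703 (r = 0.986), while Mt2 (r = 0.927) stood at rank 114 of the tested probe sets with a single symbol. The arrays share their pairs, so these values describe differences between pairs as much as between temperatures. The 3 genes were picked as the highest of all these probe sets on 8 arrays, and a link to Mt1 was not tested.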
